A study of Ovis aries with 56 samples.

Results

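The comparison is that of untreated ewes with untreated rams in the right amygdala, a forebrain nucleus complex of emotional, social and reproductive behaviour. RNA of 1 amygdala side of 1 animal was hybridized on each 2-colour Agilent array against a pool of amygdala RNA of both sexes, both sides and both treatments, and each value is the log2 of a ratio between sample and pool. The animals were 50-week-old Scottish Mule Texel Cross sheep from same-sex twin pairs in which 1 twin carried implants of the GnRH agonist goserelin (GnRHa). All animals of the main comparison were the untreated twins. GnRHa-treated animals are used here to set the untreated difference beside the treated one. Their arrays also entered the statistical fit and the filter on missing values. They thus bear on the spread behind each p and on which probes were tested. These animals had received 3.6 mg implants at intervals of 4 weeks, starting at week 8 of age in rams and at week 28 in ewes. Rams and ewes were housed apart throughout, per the labels, so sex and housing cannot be told apart. The ewes shared no twin pair with the rams.

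Of the 14 arrays of untreated right amygdala, 9 were kept, 5 of ewes and 4 of rams, by the rule that the added spike-in RNAs of a column must follow those of the other columns. The members described are the named autosomal genes, meaning genes whose probe had 1 gene name and whose gene lies on a numbered chromosome of the RefSeq assembly ARS-UI_Ramb_v3.0. There were 750 such genes among 816 named genes. Of these, 679 had 2 or more values in every one of the 8 groups of the series and were tested, each by its brightest probe, among 12930 probes tested in all. This filter looked at missing values and at no difference directly. A gene with values missing mostly in 1 sex could fail it, so it was not fully blind to sex. The other 71 genes were not tested.

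The amygdala is among the sexually dimorphic regions of the mammalian brain. Its medial and cortical nuclei receive olfactory input, carry receptors for oestrogens and androgens and project to the hypothalamus, where GnRH neurons drive the release of luteinizing and follicle-stimulating hormone from the pituitary. Gonadal steroids act through these nuclear receptors and change transcription of neuropeptides, growth factors and synaptic proteins. Activins and inhibins, dimers built from shared subunits, act in the same axis and also as local signals in the brain.

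The 9 kept arrays had absolute spike-in slopes of 1.02 to 1.06 and lacked a value for 5.15 to 15.9% of the probes, whereas the 5 arrays left out had slopes of 0.0236 to 0.191 and lacked 29.6 to 40.9%. The column of ewe replicate 7 ran in the opposite direction (slope -1.03) and was multiplied by -1, and its sample was then counted as Cy5, against its label. All 9 arrays then carried the sample in Cy5, so a dye effect of a probe was the same in both sexes. The labels do not state the direction of the ratios. They were read as sample over pool, and all higher and lower statements would swap if every column ran the other way. Ewe replicate 4 and ram replicate 5 stood apart, with mean correlations of -0.0410 and -0.0566 to the other arrays of their own group over the probes tested, against 0.108 to 0.214 for the other arrays. Mean correlations of those other arrays with the other sex were 0.0923 to 0.199. Ram replicate 3 was closer to the ewes (0.199) than to the rams (0.108). Only 1 of 20 neuronal markers (NEFH) and 1 of 16 oligodendrocyte markers (TF) were tested. A ratio to an amygdala pool does not show whether a gene is present, so these values could not check the labelled tissue.

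No named autosomal gene differed between the sexes after adjustment. In the right amygdala, limma called 10 of 12930 probes (0.0773%), with 2 higher and 8 lower in ewes, and 0 of the 679 genes. All 10 called probes stand for transcripts without a gene name here. At an unadjusted p below 0.05 there were 55 of the 679 genes (8.1%), against 9.27% of all probes. Of these genes 23 were higher and 32 lower in ewes, where 4.32% of all probes were higher and 4.96% lower. Ewe and ram arrays did not overlap for 32 genes (4.71%), against 4.47% of all probes. Of these, 9 were higher and 23 lower in ewes, where 1.89% of all probes were higher and 2.58% lower. The genes thus stood near the background by both counts. A difference above 0 was found for 363 genes and one below 0 for 316, beside 50.9% and 49.1% of all probes. The median difference of the 679 genes was 0.03 on the log2 scale, and 0.0084 over all probes. For 325 of the genes (47.9%) the 95% confidence interval lay within a log2 difference of 1 either way. With ewe replicate 4 left out the called probes numbered 62 and the called genes 2, and with array weights estimated by limma 147 and 9. The called probes numbered 3 without ewe replicate 1 or 3, 4 without ram replicate 2 or 3 and 5 without ewe replicate 7.

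**Figure D1:**
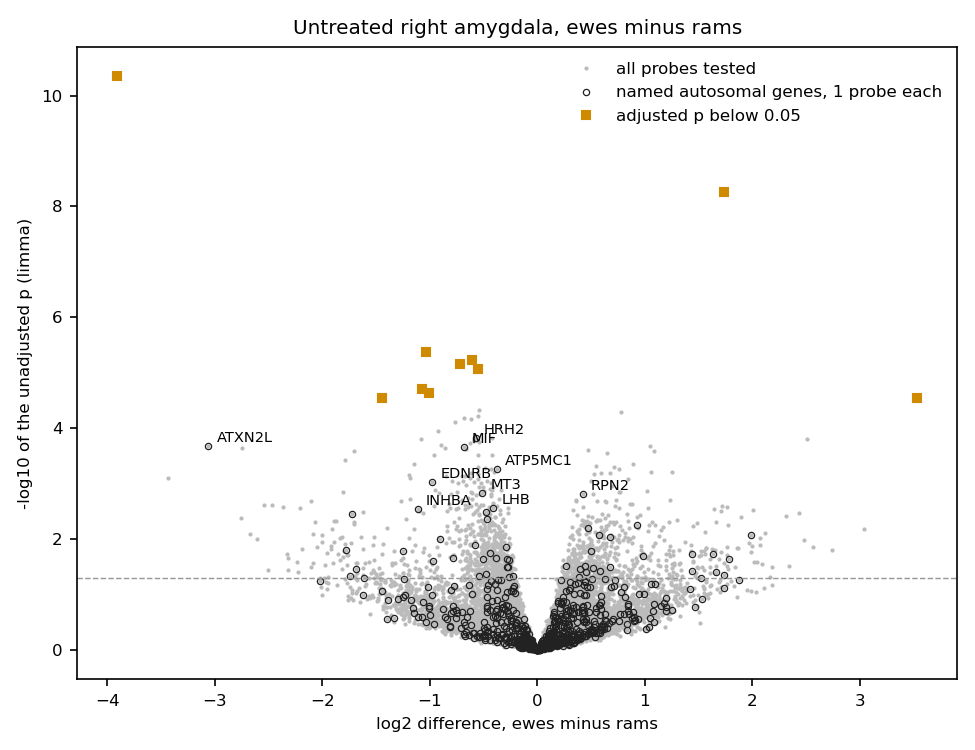
Log2 difference between ewes and rams (horizontal axis) against -log10 of the unadjusted limma p (vertical axis) for all 12930 probes tested, with the 679 named autosomal genes as open circles and the 10 called probes as squares. The dashed line marks an unadjusted p of 0.05. No open circle falls on a square, and the 9 genes of lowest p are labelled.

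The 2 probes of lowest p were read as a check of the sex labels. The probe for transcript FE028749 read -2.96, -2.72 and -3.53 in the 3 ewe arrays that measured it and 0.94, 1.11, 0.69 and 0.51 in the 4 ram arrays. The probe for CU655072 read 0.80, -0.27, 0.31, 0.75 and 1.36 in ewes and -0.54, -0.93, -1.49 and -1.65 in rams. Neither probe overlapped between ewes and rams, and the turned array fell on the side of the ewes in both. Since they were picked for this contrast, they are no independent check of its labels. The genes of lowest p described below were picked by the same contrast, which favours groups that lie apart.

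Among the genes with lower values in ewes, the lowest p belonged to HRH2, the histamine H2 receptor, which couples to cyclic AMP formation and carries part of the histaminergic input to the forebrain. Its log2 ratios were -0.55, -0.35, -0.33, -0.54 and -0.51 in ewes and -0.30, 0.37, 0.15 and 0.25 in rams. All ewe arrays lay below all ram arrays, with ram replicate 1 close to the ewes. The log2 difference was -0.57 ± 0.13 (standard error, here and below), a 1.49-fold lower ratio, with limma's adjusted p = 0.0929. Without ram replicate 1 the difference was -0.71 with an adjusted p of 0.0177. A second, dimmer HRH2 probe gave 0.11 ± 0.53 and overlapped between the sexes.

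The next 2 genes by p had the same adjusted value. MIF, a cytokine made by many cell types and stored preformed in the cytoplasm, read -0.49, 0.17, 0.16, -0.14 and 0.07 in ewes and 0.51, 0.71, 0.67 and 0.65 in rams. No ewe array reached the lowest ram array, and the rams were close together. The difference was -0.68 ± 0.17 (adjusted p = 0.0931). ATXN2L, a relative of ataxin-2 that resides in stress granules, had the most extreme difference of the 679 genes, -3.06 ± 0.69 (adjusted p = 0.0931), but rested on 4 ewe and 2 ram arrays. Its ratios were -1.22, -0.14, -0.26 and -0.48 in ewes and 2.93 and 2.27 in rams, with no overlap. Its other probe gave -1.42 ± 0.93 and overlapped. The brighter ATXN2L probe was itself dim, with a log2 brightness of 5.60 in the authors' deposited tables. Among the 58 genes named by rule, brightness ran from 5.23 (UCP1) to 12.1 (FTH1). PADI3, IKBKB, MB, SCNN1A, PMCH, PGR and COL3A1, with large differences given below, lay at 5.32 to 5.37. FAS lay at 5.52, ESR2 at 5.28 and AQP1 at 5.24. What low brightness did to these differences was not tested.

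ATP5MC1 encodes the membrane-embedded c subunit of mitochondrial ATP synthase. Its brightest probe read -0.40, -0.23, -0.22, -0.09 and -0.15 in ewes against 0.25, 0.08, 0.23 and 0.09 in rams, again without overlap, for a difference of -0.37 ± 0.10 (adjusted p = 0.144). The gene had 3 other tested probes, with differences of -0.27, -0.56 and -0.63, all lower in ewes and all with overlapping groups. MT3, a metallothionein of brain that binds zinc and copper, read 0.11, 0.15, -0.14, 0.65 and -0.11 in ewes and 0.53, 0.80, 0.82 and 0.43 in rams. The sexes overlapped only through ewe replicate 4, at 0.65. The difference was -0.51 ± 0.15 (adjusted p = 0.201), -0.62 ± 0.16 in the other MT3 probe, and -0.63 (adjusted p = 0.0311) without that ewe.

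Among receptors and ligands, EDNRB, the endothelin B receptor of astrocytes and endothelium, read -0.22, -0.49, -0.02, -0.83 and -0.05 in ewes and 0.61, 1.10, 1.00 and -0.04 in rams. Ram replicate 5 lay within the ewes, and the other 3 rams lay above them. The difference was -0.98 ± 0.27 (adjusted p = 0.167), whereas the dimmer EDNRB probe gave 0.70 ± 0.55. INHBA, the beta A subunit shared by activin A and inhibin A, read -0.71, -0.34, -0.83, -0.61 and -1.64 in ewes and -0.56, 0.08, 0.92 and 0.85 in rams. Ram replicate 1 fell among the ewes. Both of its probes gave a lower ratio in ewes, by -1.11 ± 0.35 (adjusted p = 0.246) and -1.15 ± 0.40.

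LHB, the beta subunit of luteinizing hormone, which is known mainly from pituitary gonadotropes, read -0.27, -0.05, -0.52, 0.18 and -0.07 in ewes and 0.21, 0.32, 0.29 and 0.24 in rams. The groups did not overlap, though ewe replicate 4, at 0.18, came close to the lowest ram. The difference was -0.41 ± 0.13 (adjusted p = 0.243), and the second LHB probe gave -0.06 ± 0.66. IGFBP4, a secreted protein that binds insulin-like growth factors, differed by -0.58 ± 0.22 (adjusted p = 0.385) and by -0.67 ± 0.21 in its other probe. Its ewe arrays read -0.54, -0.83, -0.53, 0.17 and -0.47 and its ram arrays -0.07, 0.10, 0.39 and 0.07. Only ewe replicate 4 reached the range of the rams.

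Of actin and myosin genes, CFL1 and MYL6 were among the 15. CFL1, cofilin, which severs actin filaments, read -0.44, 0.48, 0.43, 0.37 and -0.16 in ewes and 0.69, 1.19, 1.49 and 0.85 in rams. The groups were apart, and the 2 CFL1 probes gave -0.90 ± 0.33 (adjusted p = 0.353) and -0.85 ± 0.32. MYL6, a light chain of non-muscle myosin, read -0.04, -0.34, 0.06, 0.19 and -0.13 against 0.40, 0.22, 0.90 and 0.14, with a difference of -0.48 ± 0.15 (adjusted p = 0.262). One ewe array, replicate 4, exceeded the lowest ram, and without ram replicate 3 the difference was -0.31.

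The other 4 genes on this side were PADI3, a peptidylarginine deiminase best known from skin, CSN2, the milk protein beta-casein, SLC5A8, a sodium-coupled monocarboxylate transporter, and IKBKB, the kinase that marks the inhibitor of NF-kappa-B for breakdown. Their differences were -1.72, -0.47, -0.29 and -1.77, with adjusted p of 0.264 to 0.403. PADI3 was measured in 3 ewe and 3 ram arrays, which did not overlap. IKBKB overlapped, ewe replicate 1 reading 0.53 and ram replicate 1 reading 0.45, and its second probe gave 0.13 ± 0.77.

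On the higher side, RPN2, a subunit of the oligosaccharyltransferase that glycosylates proteins in the endoplasmic reticulum, had the lowest p. It read 0.23, 0.19, 0.33, 0.26 and 0.34 in ewes and -0.34, -0.20, -0.00 and -0.11 in rams. Every ewe array lay above every ram array. The difference was 0.42 ± 0.12 (adjusted p = 0.201), and the other RPN2 probe gave 0.29 ± 0.13, also without overlap.

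Of the 15 genes on the higher side, HSPA1A and HSP90AA1 belong to the heat shock list. HSPA1A, the inducible HSP70 chaperone, whose probes may also bind near-identical gene copies, read 0.97, 1.11, 0.60, -0.27 and 0.02 in ewes and -0.83, -0.22, -0.90 and 0.28 in rams. Ewe replicates 1, 2 and 3 stood above all rams, ewe replicates 4 and 7 fell within them, and ram replicate 5 was the highest ram. Its 2 probes gave 0.93 ± 0.31 (adjusted p = 0.302) and 0.87 ± 0.32. HSP90AA1, the stress-inducible cytosolic HSP90, read 0.66, 0.42, 1.33, -0.30 and 0.70 in ewes and 0.28, -0.12, 0.18 and 0.16 in rams. Only ewe replicate 4 was not above the rams, and the difference was 0.45 ± 0.20 (adjusted p = 0.478), and 0.26 without ewe replicate 3. FTH1, the heavy chain of the iron store ferritin, read 0.88, 1.13, 1.11, 0.47 and 1.02 in ewes and 0.24, 0.51, 0.73 and 0.30 in rams, a difference of 0.47 ± 0.16 (adjusted p = 0.309). Ewe replicate 4 alone fell within the rams. Its next probe gave 0.48 ± 0.18 and the dimmest gave 0.01 ± 0.19.

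NFKBIA, which holds NF-kappa-B in the cytoplasm and is itself a target of that factor, read -0.19, -0.16, -0.07, -0.13 and 0.33 in ewes and -0.88, -0.48, -0.47 and -0.66 in rams. The groups were apart, and the difference was 0.57 ± 0.20 (adjusted p = 0.338). Further genes of immunity and cell death with higher values in ewes were C3, the central complement component, by 0.68 ± 0.30, and FAS, a death receptor, by 1.78 ± 0.74, the second from 4 ewe and 3 ram arrays. TXNIP, which binds thioredoxin and limits glucose uptake, stood higher by 0.52 ± 0.23 (adjusted p = 0.488). All 3 overlapped between the sexes. Their other probes gave 0.49 ± 0.31 for C3, 0.42 ± 0.73 for FAS and 0.21 ± 0.23 for TXNIP.

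The remaining genes on the higher side came from several classes. MB, myoglobin, gave the highest value, 1.99 ± 0.71, but its other probe gave -0.77 ± 0.61. SCNN1A, the alpha subunit of the epithelial sodium channel, was split likewise, at 1.63 ± 0.65 in the brighter probe and -1.81 ± 0.72 in the dimmer. CLDN4, a tight junction protein, was higher in both probes, by 0.68 ± 0.25 and 0.70 ± 0.26, and the second probe did not overlap between the sexes. PMCH, the precursor of melanin-concentrating hormone, a hypothalamic peptide of feeding and sleep, read 0.96, 0.54, 1.52 and 0.48 in 4 ewes and -0.71, -0.53, 0.26 and -1.32 in rams. The groups were apart, with a difference of 1.44 ± 0.57 (adjusted p = 0.415). SLIT2, an axon guidance ligand, GGTA1, a galactosyltransferase, and DNMT1, the maintenance DNA methyltransferase, were higher by 0.99, 0.50 and 0.27 with overlapping groups and adjusted p of 0.405 to 0.477. The second SLIT2 probe gave -0.12 ± 0.62. The DNMT1 value turned to -0.35 with all 56 columns used as labelled.

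**Figure D2:**
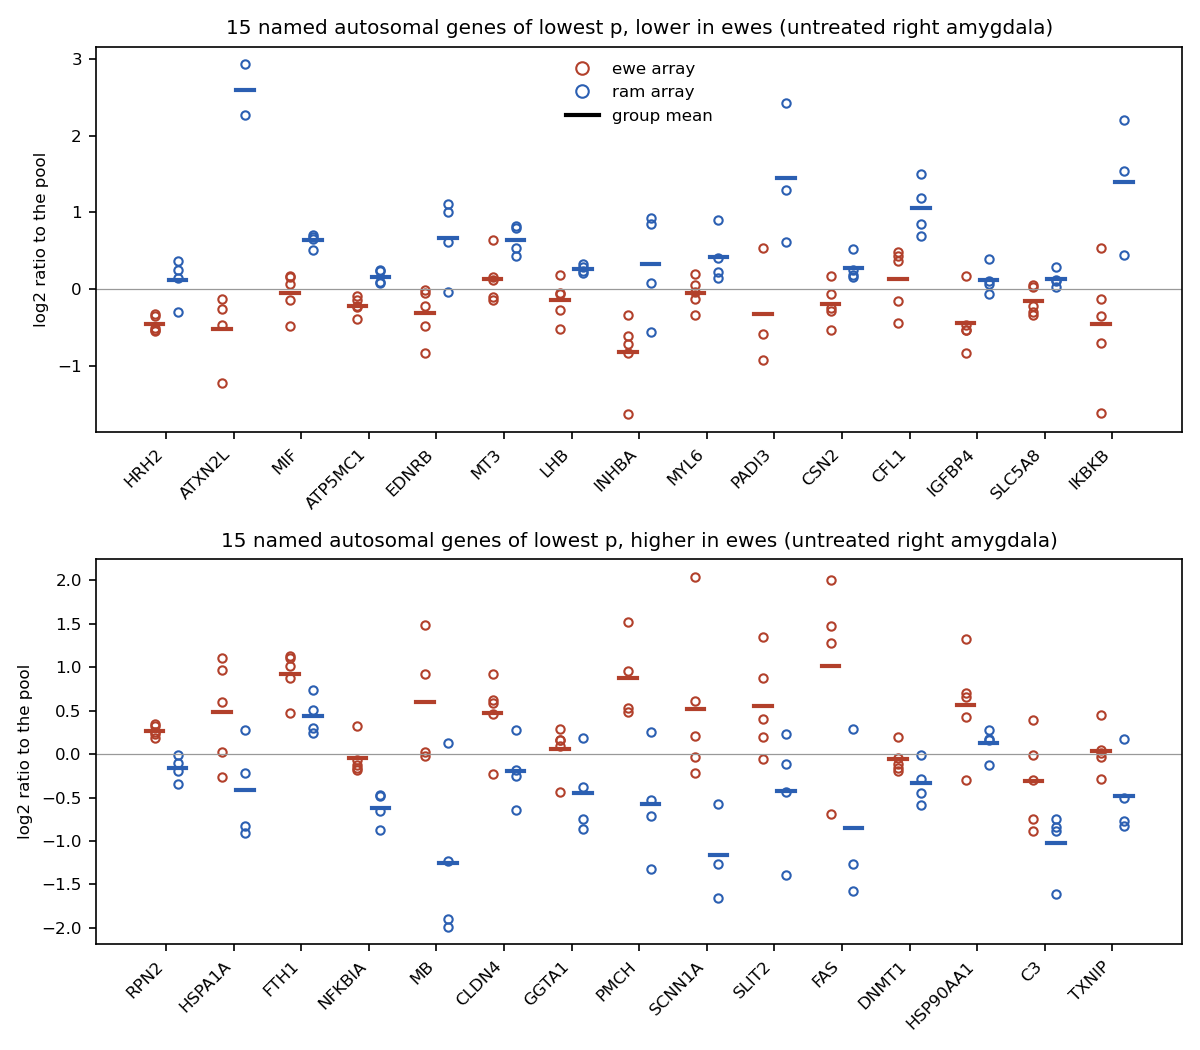
Log2 ratio to the pool (vertical axis) in each ewe array (red circles) and ram array (blue circles) for the 15 named autosomal genes of lowest p on either side, with horizontal bars for the group means. Ewes lie wholly below rams for HRH2, ATXN2L, MIF, ATP5MC1, LHB, PADI3 and CFL1. They lie wholly above rams for RPN2, NFKBIA, PMCH and SCNN1A. The 30 genes were picked by p in this same comparison, which favours groups that lie apart. Groups lay apart for 4.71% of the 679 genes and 4.47% of all probes. None of the 30 genes passed the adjusted threshold.

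How far 2 probes of one gene told the same difference could be read in 391 genes. The brightest 2 had the same sign in 259 of them (66.2%), and across these genes their differences correlated with Pearson's r = 0.218 and Spearman's rho = 0.35. These are correlations across genes on the same arrays, and genes are not independent replicates.

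An earlier analysis of these data had called 10 genes in untreated animals over both sides together, and 9 of those arrays are the ones used here, so the right side is no independent evidence for them. On the right alone none of the 10 passed. INHBA, EDNRB, ATXN2L, HSPA1A and TXNIP are given above, and their left differences were -1.05, -0.82, -1.66, 0.95 and 0.78, of which only that of TXNIP passed (adjusted p = 0.0348). The other probes of these genes gave -1.05, -1.37, 0.01, 0.83 and 0.19 on the left, and none passed (adjusted p = 0.666 for TXNIP). CXCL1, a chemokine for neutrophils, read -0.31, -0.27, -0.46, 0.88 and -0.38 in ewes and -0.39, -0.86, -1.20 and -0.22 in rams. Ewe replicate 4 alone stood above all rams. The difference was 0.59 ± 0.27 (adjusted p = 0.501; 0.34 without ewe replicate 4) on the right and 1.02 ± 0.26 (adjusted p = 0.0202) on the left.

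RPS6, a protein of the small ribosomal subunit, was lower in ewes by -0.28 ± 0.13 on the right and by -0.48 ± 0.12 (adjusted p = 0.0198) on the left. With all 56 columns as labelled the right difference turned to 0.12. EEF1D, a subunit of the translation elongation factor, SLC2A8, a glucose transporter of intracellular membranes, and TM7SF2, a sterol reductase of cholesterol synthesis, stood at 0.31, 0.38 and 0.30 on the right. Without ram replicate 2, RPS6 stood at -0.18, SLC2A8 at 0.24 and TM7SF2 at 0.19 there. On the left EEF1D, SLC2A8 and TM7SF2 were higher by 0.84, 0.74 and 0.66, each past the threshold there (adjusted p = 0.00707, 0.0212 and 0.0167). The difference between sides was itself not called for any of the 10, with adjusted p of 0.217 to 0.987.

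Sex steroid receptors varied widely between arrays. ESR1, oestrogen receptor alpha, read -1.69, -2.01, -2.50, 1.08 and 0.83 in ewes and -2.50, -2.04, -3.52 and -0.48 in rams. Ewe replicates 4 and 7 lay above all rams and the other ewes lay among them, so the difference of 1.26 ± 0.93 (adjusted p = 0.716) was within the spread. ESR2, oestrogen receptor beta, gave -1.39 ± 0.87 from 4 ewe and 2 ram arrays, and PGR, the progesterone receptor, -1.44 ± 0.81 from 3 and 3. Without ram replicate 3 the PGR value was -0.66, and that of ESR1 was 0.76 without ram replicate 3 and 0.78 without ewe replicate 4. The androgen receptor gene lies on the X chromosome and was not among the members. Of 11 tested sex steroid receptors and steroid enzymes, 0 were called, 6 were higher and 5 lower in ewes, and the median difference was 0.19. In this list NR3C1, the glucocorticoid receptor, had the lowest p, with a difference of 0.49 ± 0.26 that was 0.26 without ram replicate 3. CYP19, the aromatase that makes oestrogens, stood at 0.55 and at -0.09 without ram replicate 2.

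Of the 20 tested genes of the GnRH and gonadotropin axis with the activins and inhibins, 0 were called, 12 were higher and 8 lower, with a median of 0.08. At an unadjusted p below 0.05 stood 2, LHB and INHBA, both lower in ewes. INHA, the alpha subunit particular to inhibins, was lower by -0.46 ± 0.24, and GNRHR, the GnRH receptor, stood at 0.91. TGF-beta family genes, which share INHBA, had 12 higher and 11 lower of 23 and a median of 0.02. The growth hormone and IGF axis had 9 higher and 7 lower of 16, with IGFBP4 alone at an unadjusted p below 0.05.

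Neuropeptides and their receptors, many of which the amygdala makes or receives, were the longest list, with 29 tested, 0 called, 16 higher and 13 lower and a median of 0.07. Below an unadjusted p of 0.05 stood 4 of them. PMCH is given above. ADCYAP1, the precursor of PACAP, stood at 1.74, but ram replicate 2 read -5.20 and without it the value was 0.55. NPY, neuropeptide Y, and AGRP, agouti-related peptide, stood at -0.55 and -1.61, the latter from 3 ewe and 2 ram arrays. ADCYAP1, NPY and AGRP are named after their values were seen. The oxytocin receptor OXTR stood at 0.86 (0.21 without ram replicate 1) and oxytocin itself at -0.06, neither below an unadjusted p of 0.05.

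Glutamate receptors and transporters had 8 higher and 5 lower of 13, a median of 0.11 and none below an unadjusted p of 0.05. GRM7, a presynaptic metabotropic receptor, came first at 0.82 ± 0.50, and at 1.26 without ram replicate 2. Of the 5 tested amine genes, 3 were higher and 2 lower, and HRH2 alone was below that p. No GABA gene was tested (0 of 21), and both tested genes of the synapse and channel list, CALM2 and TRPM7, stood at 0.16 and near 0 without ewe replicate 3 and ram replicate 5 respectively. Endothelin and vascular receptors had 10 higher and 13 lower of 23, with EDNRB and FLT1, a receptor of vascular endothelial growth factor, below it. FLT1 gave -1.24 ± 0.49 in its brightest probe, but 0.78, 0.40 and 0.11 in the other 3. Of the 22 cytokine and chemokine genes, 14 were higher and 8 lower, and 3 had an unadjusted p below 0.05. These were IL12A, a subunit of interleukin-12, at -0.97 ± 0.41, CXCL1 at 0.59 ± 0.27 and IL5, an eosinophil growth factor, at 1.44 ± 0.64 from 4 ewe and 3 ram arrays. IL5 is named after its values were seen.

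Ribosomal proteins had 10 higher and 7 lower of 17 with a median of 0.01, translation factors 5 and 2 of 7 with 0.14, and glucose and nutrient genes 9 and 8 of 17 with 0.02. Sterol and lipid genes had 13 higher of 16 and a median of 0.20, with FABP5, a fatty acid carrier, of lowest p at 0.39 ± 0.19, and 0.25 without ram replicate 5. Heat shock and folding genes had 4 higher of 5 and a median of 0.13. Immediate early and stress genes had 3 higher and 5 lower of 8 and a median of -0.02. Extracellular matrix genes had 4 higher and 7 lower of 11, and COL3A1, a fibrillar collagen, stood lowest at -1.74 ± 0.82 from 3 ewe and 2 ram arrays, against 0.12 in its other probe. The interferon list (7 tested, median -0.03), the clock list (5, -0.06) and antigen presentation (3, 0.26) had no member below an unadjusted p of 0.05, and their members of lowest p were ISG15 at 1.06, CRY1 at -0.46 and CTSS at 0.44.

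Cell type markers were read beside these lists. The 6 tested astrocyte markers had differences above 0, between 0.33 (SLC1A3) and 0.51 (GJA1), with GFAP, the astrocyte filament protein, at 0.43 and AQP4, the water channel of astrocyte endfeet, at 0.40 ± 0.18. AQP4 alone had an unadjusted p below 0.05, and FGFR3 turned to -0.24 without ram replicate 1. The mean of the 6 per array ran from -0.29 to 0.72 in ewes and from -0.48 to 0.20 in rams, so the sexes overlapped, and 0 of the 6 were called. In bulk tissue, fewer cells of a type and less RNA per cell cannot be told apart. Microglial and macrophage markers had 3 higher and 5 lower of 8, and the mean over these markers ran from -0.09 to 0.07 in ewes and from -0.04 to 0.22 in rams. Choroid plexus markers, which can enter with adjoining ventricle wall, had differences below 0 in the 3 tested, AQP1 at -1.07, TTR at -0.49 and PRLR at -0.44, with means of -2.16 to -0.68 in ewes and -1.78 to 0.77 in rams. Without ram replicate 2 AQP1 stood at -0.48, without ram replicate 1 TTR stood at -0.04, and without ewe replicate 7 PRLR turned to 0.03. Their part in the differences of single genes was not tested.

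The other marker lists were mixed. Endothelial and mural markers had 3 higher and 4 lower of 7, blood 1 and 2 of 3, pituitary 5 and 3 of 8, skeletal muscle 2 and 3 of 5 and lymphocyte 2 and 2 of 4. HBB, beta-globin, gave the lowest p of the blood list with -0.67 ± 0.70, and CD3D that of the lymphocyte list with -0.87 ± 0.64. Single rams moved both, HBB to -0.23 without replicate 1, -0.24 without replicate 2, -1.07 without replicate 3 and -1.11 without replicate 5, and CD3D to -0.29, -1.59 and -0.56 without replicates 1, 3 and 5. The respiration list held 3 genes (median -0.66), of which UCP1, a mitochondrial uncoupler, came first at -0.66 ± 0.87 from 2 and 2 arrays.

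**Figure D3:**
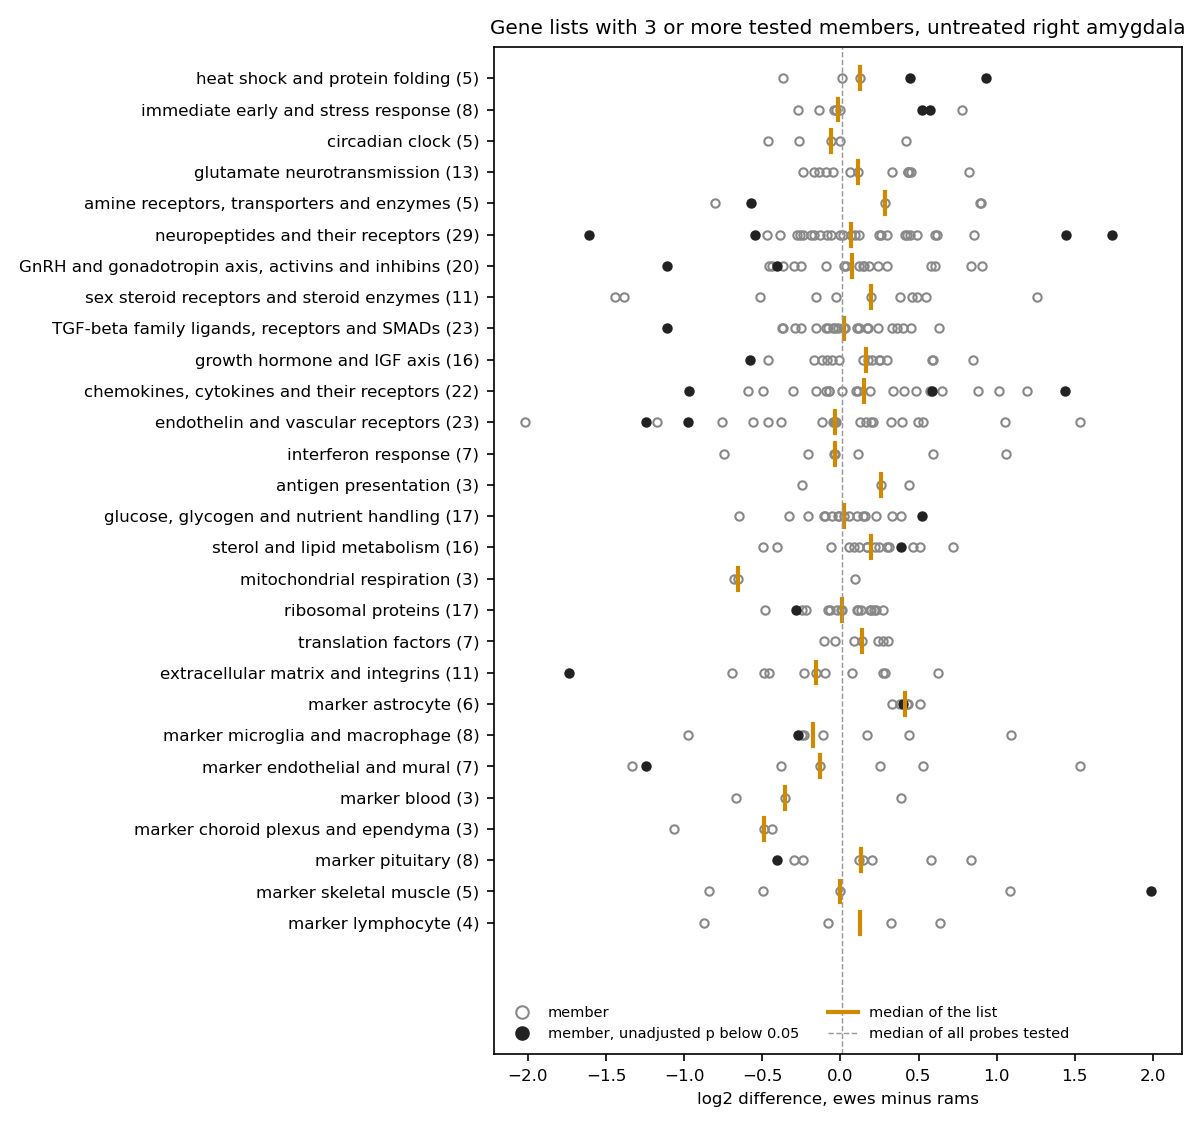
Log2 difference between ewes and rams (horizontal axis) for the members of each list with 3 or more tested genes, with the number tested in brackets. Filled circles have an unadjusted p below 0.05, orange bars are list medians and the dashed line is the median of all probes, 0.0084. The 6 astrocyte markers lie together between 0.33 and 0.51, while most other lists spread to both sides of 0.

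The left amygdala of untreated animals, with 5 ewe and 5 ram arrays, gave 661 called probes of 12915 tested (5.12%) and 31 of the 679 genes (4.57%). Of these genes 19 were higher and 12 lower in ewes, where 2.59% of all probes were higher and 2.53% lower. Of these animals, 3 ewes and 3 rams had both sides kept, and the left arrays carried the sample in Cy3 except for 1 ram, so side and dye nearly coincide. Whether the sex difference itself differed by side was tested as right minus left, which called 129 of 12915 probes (0.999%) and 7 of the 679 genes (1.03%). In these 7 the difference had opposite signs on the sides, as in all 129 called probes, a pattern that choosing probes by a high difference between sides favours. MIF, ATP5MC1, CFL1, TYROBP and INHA were lower in ewes on the right and higher on the left, and FTH1 and RPL6 the reverse. Over all probes, 0.759% were called on the lower side of this test and 0.24% on the higher side. The signs of the 7 genes are those of their brightest probes. A dimmer ATP5MC1 probe was lower in ewes on both sides (-0.56 right, -0.26 left). The dimmest FTH1 probe was near 0 on both (0.01 and -0.09), and the second INHA probe gave -0.22 and 0.46. The remaining probes of ATP5MC1, FTH1, CFL1 and TYROBP kept the opposite signs. MIF and RPL6 had no other tested probe.

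MIF had the lowest p of the 7. On the left it read 1.14, 0.24, 0.67, 0.98 and 0.37 in ewes and -0.15, 0.39, -0.17, 0.24 and 0.25 in rams, so ewes stood mostly above rams there and below all rams on the right. The difference was 0.58 ± 0.16 on the left (adjusted p = 0.0284), and right minus left came to -1.26 ± 0.22 (adjusted p = 0.00551). CFL1 on the left read 1.93, 0.28, 1.43, 1.84 and 0.64 in ewes and -0.11, 0.65, 0.15, 0.84 and -0.12 in rams. Right minus left was -1.81 ± 0.43 (adjusted p = 0.0331) for CFL1.

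TYROBP, an adaptor of microglial receptors, parted the sexes on the left, with ewes from -0.06 to 0.26 and rams from -0.55 to -0.16. On the right it read -0.50, -0.03, -0.38, 0.17 and -0.28 in ewes and 0.12, 0.02, -0.02 and 0.13 in rams, with ewe replicate 4 as the only ewe above the rams. Right minus left was -0.75 ± 0.16 (adjusted p = 0.0222). INHA read -0.48, -0.13, -0.56, -0.27 and 0.32 in ewes and 0.16, 0.61, 0.08 and 0.07 in rams on the right, whereas its left means were 0.27 ± 0.38 in 5 ewes and -0.49 ± 0.60 in 5 rams (SD). Right minus left was -1.36 ± 0.32 (adjusted p = 0.0330). ATP5MC1 gave -0.50 ± 0.13 (adjusted p = 0.0499), with left means of 0.15 ± 0.19 and 0.02 ± 0.12.

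FTH1 stood at -0.74 ± 0.17 (SD, n = 5) in ewes and -0.20 ± 0.20 (n = 5) in rams on the left and at 0.92 ± 0.27 (n = 5) and 0.45 ± 0.22 (n = 4) on the right. Left ewes were thus below every left ram, and right minus left was 0.84 ± 0.21 (adjusted p = 0.0464). RPL6, a protein of the large ribosomal subunit, gave 0.19 ± 0.13 on the right (0.07 without ram replicate 3 and 0.30 without ram replicate 2), -0.46 ± 0.12 on the left and 0.65 ± 0.17 (adjusted p = 0.0486) between them. The number of probes that this interaction called ranged from 26 to 620 as 1 right array was left out in turn, and was 71 without a dye term. It was 26, 30 and 34 without ewe replicates 1, 3 and 7, 620 without ewe replicate 4, and 82, 36 and 61 without ram replicates 2, 3 and 5. With all 56 columns as labelled the right TYROBP value turned to 0.68.

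**Figure D4:**
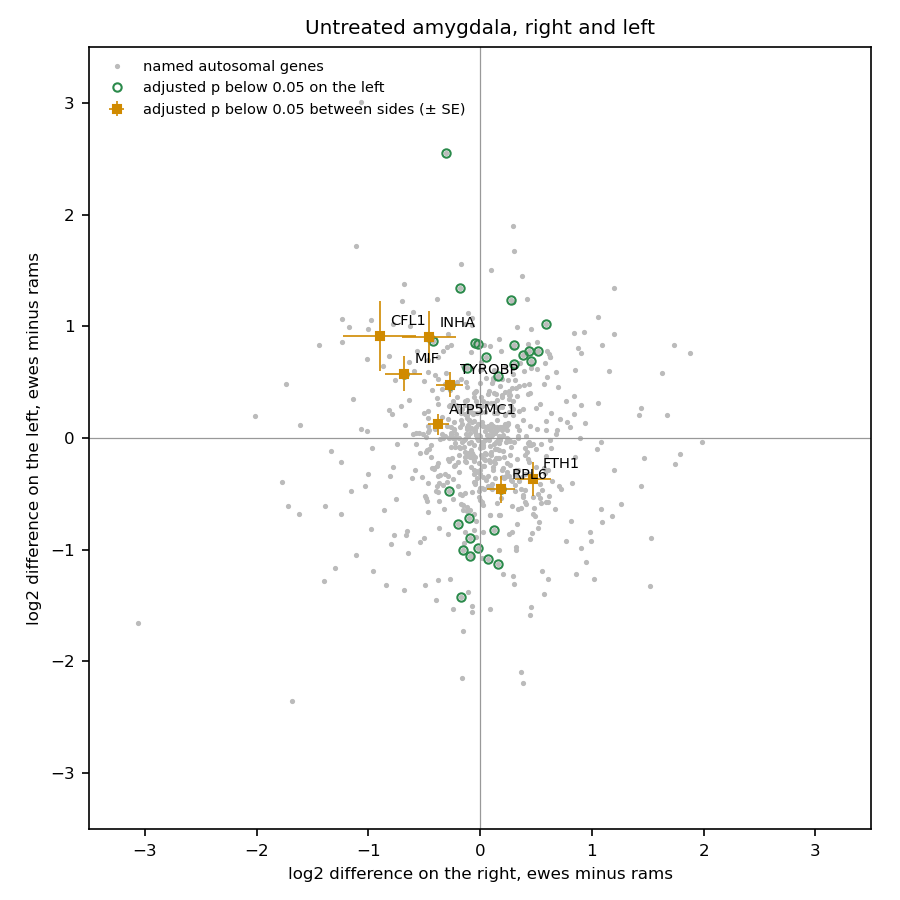
Log2 difference between ewes and rams on the right (horizontal axis) and on the left (vertical axis) for 679 named autosomal genes. Green circles passed the threshold on the left, and orange squares with standard errors are the 7 genes whose difference itself differed between sides, all in the quadrants of opposite sign.

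In the right amygdala of GnRHa-treated animals, 5 ewe and 6 ram arrays were kept. All these ewe arrays carried the sample in Cy5. Ram replicates 1 and 2 carried it in Cy3, so dye was not balanced between the treated sexes. Ram replicate 6 was turned and counted as Cy5, against its label. Between treated ewes and rams, 9 of 12915 probes were called (0.0697%). Of the 679 genes, 1 was called there, CTSS, the lysosomal protease cathepsin S, at 1.15 ± 0.24 (adjusted p = 0.0498), against 0.44 ± 0.26 (adjusted p = 0.621) in untreated animals. The difference between untreated and treated animals was called for 0 of 12915 probes by limma (lowest adjusted p = 0.116), and 752 (5.82%) had an unadjusted p below 0.05. Among the genes it was 42 of 679. The pairing of treated with untreated twins was not used in this test. Among the genes of lowest p in that test were SLC7A5, a transporter of large neutral amino acids, and BGLAP, osteocalcin. SLC7A5 stood at 0.57 ± 0.39 untreated and -1.64 ± 0.37 treated. BGLAP stood at -0.47 ± 0.53 untreated (-0.15 without ram replicate 1) and 1.99 ± 0.51 treated. For the 9 genes of lowest p in the untreated right amygdala, the treated values were as follows. HRH2 stood at -0.16, ATXN2L at -0.92, MIF at -0.49, ATP5MC1 at -0.16 and EDNRB at 0.08. MT3 stood at -0.37, RPN2 at 0.28, LHB at -0.15 and INHBA at -1.12. HSPA1A, further down by p, stood at 0.09, and none of these genes was called.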

How the data were processed

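Of the authors' deposited values, the log2 ratios per array were used. Agilent Feature Extraction 9.1 is the scanner software named, per the submitters' processing notes. Background correction, normalization and the direction of the ratio are not given in the sources used here. The authors' deposited tables of each group against the pool gave log2 brightness, used to choose the brightest probe of a gene, and log2 fold changes. Columns were kept at an absolute spike-in slope of at least 0.5, which left 41 of 56 arrays from 25 animals, with 3 columns turned. Control spots were dropped and spots of a probe averaged, giving 15008 probes. No depth exists for arrays, and their number limits precision. limma 3.58.1 in R 4.3.3 fitted the means of the 8 groups, the dye of the sample and animal as a random block (correlation 0.147), with eBayes, two-sided tests and Benjamini-Hochberg adjustment over all probes, threshold 0.05. The method was tested on simulated data in which a probe had the same spread on every array. That test did not cover arrays of unlike spread. The limma array weights of the kept right control arrays ran from 0.376 (ewe replicate 4) to 1.457 (ewe replicate 1). Tables were made with pandas 2.3.3 in Python 3.11.15. Genes named are the 15 of lowest p on each side, the list members of lowest p, the 10 genes called earlier, the interaction genes and the sex steroid receptors. One gene that the rule names is not reported here. Members and lists were chosen with earlier results of these data known.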

Additional observations from a re-analysis of the deposited data

Results flagged for a closer look

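Of 102 groups of 4 or 5 arrays of the genes named above, 7 held 1 array far from the rest, where chance gives about 1 in 20. Ewe replicate 4 was that array in 3 of them, with CXCL1 at 0.88 (other ewes -0.46 to -0.27), SLC7A5 at -0.97 (0.11 to 0.52) and CD3D at 0.67 (-0.84 to -0.48). The other 4 were NFKBIA in ewe replicate 7 at 0.33 (other ewes -0.19 to -0.07), GGTA1 in ewe replicate 3 at -0.44 (0.10 to 0.29), C3 in ram replicate 3 at -1.61 (other rams -0.89 to -0.74) and INHA in ram replicate 2 at 0.61 (0.07 to 0.16).

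Read by the brightest probe, the sex difference of 7 genes differed between right and left by the test of the interaction itself. This share (1.03%) was close to that of all probes (0.999%). Right minus left was -1.26 for MIF, -0.50 for ATP5MC1, 0.84 for FTH1, -1.81 for CFL1, -0.75 for TYROBP, -1.36 for INHA and 0.65 for RPL6. Left control arrays carried the sample in the other dye than right ones except for 1 ram, and without a dye term this test called 71 probes.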

How the results depend on the processing

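No paired analysis of ewes against rams was possible. The replicate numbers follow the order of the samples, and the labels pair no ewe with a ram. Untreated and GnRHa-treated animals came from the same twin pairs, with both right arrays kept for 3 female and 3 male pairs. The interaction by GnRHa did not use this pairing. Calls in the untreated right amygdala (10 with all choices as described) were 0 with all 56 columns as labelled, 6 with turned columns left out, 1 in a fit to the 2 groups alone, 147 with array weights, 22 on probes above the median brightness, 17 after quantile normalization and 54 with ewe replicate 4 and ram replicate 5 both left out, a setting chosen after seeing the data. Leaving out 1 right array at a time gave 3 to 62, fewest without ewe replicates 1 or 3 and most without ewe replicate 4. Named autosomal genes called (0) became 9 with array weights (HRH2, ATXN2L, MIF, ATP5MC1, MT3, RPN2, LHB, CSN2 and FTH1), 1 on the brighter probes (MIF), 1 without those 2 arrays (MT3) and 0 to 2 with 1 array left out. The interaction by side (129) gave 0 with all columns, 71 without dye, 393 with array weights, 282 on probes with all values, 347 without those 2 arrays and 26 to 620 with 1 array left out. The interaction by GnRHa (0) gave 1 with array weights and 0 to 1 with 1 array left out. Left calls (661) were 3 with all columns and 639 to 864 with 1 array left out. Calls in treated right amygdala (9) were 0 with all columns, 127 with array weights, 22 on probes with all values and 4 to 15 with 1 array left out, fewest without ewe replicate 1 or ram replicate 5 and most without ewe replicate 4. With all columns 3 named genes changed sign, DNMT1 to -0.35, TYROBP to 0.68 and RPS6 to 0.12. The cause of these changes was not tested. The Cy5-only setting holds the same 9 arrays as the fit to the 2 groups alone. Of the 58 genes named, 49 had the same direction in the difference of the authors' deposited tables, whose scale was not settled. Among those with the other direction were MB, CLDN4, SCNN1A, FAS and HSP90AA1, below 0 there. PADI3, IL12A and COL3A1 were above 0 there. These values ran from -0.083 (FAS) to 0.30 (COL3A1).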
